A study of Mus musculus with 18 samples.

Results

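Mouse kidneys taken 7 days after cold-storage-associated transplantation were compared with kidneys taken 7 days after sham surgery. The comparison used 6 of the 18 RNA sequencing libraries of the series, 3 transplant and 3 sham, and all genes that reached 1 FPKM in 3 or more of the 18 libraries. That rule kept 15278 of the 54848 rows in the deposited table. FPKM counts fragments per length of a gene and per size of a library, so levels of different genes can be set side by side. The remaining libraries, transplant and sham of day 1 and day 14, helped to estimate the spread and served to test where day 7 differed.

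Both groups carry the genotype label WT, and the RNA came from renal cortex per the labels' protocols. In cold storage a donor kidney is flushed and kept cold before it is implanted. Strain, age, sex, the pairing of donor and recipient and the hours of cold storage are not in the labels. The labels name in addition a rat proximal tubule cell line, streptozotocin diabetes and an ischemia-reperfusion protocol. These fields go against the sample titles and the mouse gene table, so group and day were read from the titles. Nothing says that the numbered libraries are separate animals, so each p-value reflects only differences between libraries, part of which can be technical. Read depth is not known.

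Renal cortex consists mostly of proximal tubule, an epithelium that recovers filtered solutes through specialised transporters and pays for it by burning fatty acids in densely packed mitochondria. Cold ischemia and reperfusion injure this epithelium. Surviving cells lose transporters and brush border, switch on injury genes such as Havcr1 (kidney injury molecule 1), and then either regain their earlier state or persist in a state linked to inflammation and scarring. A graft can also draw in leukocytes of the recipient, among them macrophages that clear debris and lymphocytes that recognise foreign MHC molecules.

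FPKM are relative to the library total, and that total was made up differently in the 2 groups. Transcripts of the mitochondrial chromosome held 14.4% to 17.8% of the FPKM sum in transplant libraries, against 29.6% to 30.8% in sham libraries. The median log2 fold change over all tested genes was 0.41. It was 0.02 after median-of-ratios scaling, which sets the typical gene to no change and is called balanced scaling below, so the shift between the scalings was 0.39. With FPKM as deposited, limma's moderated test (Benjamini-Hochberg adjusted p below 0.05) called 5418 genes higher in transplants, or 35.5% of those tested, and 918 lower, or 6.01%. Under balanced scaling it called 1779 higher, or 11.6%, and 1951 lower, or 12.8%. Higher calls made up 85.5% of calls as deposited and 47.7% under balanced scaling, and no gene was called in opposite directions. The libraries of the groups did not overlap for 48.5% of genes on the higher side and 8.74% on the lower side. Counts of a gene list are given under both scalings and are to be read against these shares. Every fold change is on the scale of log2(FPKM + 1), where low genes change less than in FPKM itself, and is given ± its standard error, with n = 3 libraries per group.

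Marker sums of the kidney's own epithelial cell types were above 0 in all 6 libraries. Pvalb, 1 of the 2 distal convoluted tubule markers, was listed at 0 in every transplant library. The 5 proximal tubule markers summed to 908 to 976 FPKM in transplant libraries and 1880 to 2210 FPKM in sham libraries. The 2 thick ascending limb markers, Umod and Slc12a1, summed to 716 to 908 FPKM in transplants and 714 to 906 FPKM in shams, so those groups overlapped fully. Macrophage markers (Adgre1, Cd68, C1qa, Csf1r) summed to 59.8 to 115 FPKM in transplants and 12 to 13.9 FPKM in shams, and fibroblast and mural markers (Pdgfrb, Pdgfra, Acta2, Col1a1) to 54.4 to 139 FPKM in transplants and 16 to 21.8 FPKM in shams. Hemoglobin and Alas2 transcripts, which come from red blood cells, summed to 333 to 541 FPKM in transplants and 119 to 212 FPKM in shams. Markers of mast cells, adipocytes, skeletal muscle and adrenal cortex stayed below 2 FPKM in sum in every library. In bulk RNA, fewer cells of a type and less RNA per cell cannot be told apart.

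Among called genes with a mean of at least 5 FPKM and no overlap between groups, the 12 largest rises were, in falling order, Havcr1, Lcn2, C3, S100a6, Vcam1, Lyz2, Spp1, Cp, Cxcl1, Col1a1, Sprr2g and Serpina10. Their log2 fold changes ran from 7.11 for Havcr1 to 3.93 for Serpina10, and all 12 were also called under balanced scaling. Cp, which encodes the copper-carrying ferroxidase ceruloplasmin and lies at chr3:19957054-20009145 (mm10), stood at 160.4, 169.6 and 169 FPKM in transplants and 8.13, 6.12 and 6.66 FPKM in shams. The 3 transplant libraries were nearly level, and all lay far above the sham libraries. The log2 fold change of Cp was 4.40 ± 0.21 (adjusted p = 5.37e-11).

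S100a6, which encodes a small calcium-binding protein, stood at 154, 166 and 131 FPKM in transplant libraries, against 4.36, 2.28 and 4.8 FPKM in sham libraries. Serpina10, which encodes a serpin that blocks clotting factor X, stood at 11.3, 19.5 and 18.5 FPKM in transplants and 0.342, 0 and 0.0343 FPKM in shams. Sprr2g, a small proline-rich gene of stratified epithelia, was at 16.5, 13 and 19 FPKM in transplants and was listed at 0 in every sham library. In each of these genes every transplant library exceeded every sham library. The log2 fold changes were 5.01 ± 0.28 for S100a6 and 3.93 ± 0.40 for Serpina10. The uroplakins Upk1a, Upk1b, Upk2 and Upk3a, which define urothelium, summed to at most 1.12 FPKM in transplants and 1.39 FPKM in shams.

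The 12 largest falls under the same rule were Inmt, Slc7a13, Cyp2d12, Slco1a1, Dnase1, Ugt3a1, Cyp2a4, Akr1c14, Slc22a7, Serpina1d, Acsm3 and Pzp. Inmt, which encodes indolethylamine N-methyltransferase and lies at chr6:55170626-55175043, stood at 3.77, 2.42 and 6.7 FPKM in transplant libraries, against 353, 401 and 451 FPKM in sham libraries. Its log2 fold change of -6.32 ± 0.23 (adjusted p = 1.93e-12) was the lowest of those named, and no transplant library came near a sham library. Dnase1, a secreted nuclease found in urine, stood at 9.03, 17.1 and 18.4 FPKM in transplants and 349, 339 and 532 FPKM in shams (log2 fold change -4.71 ± 0.23). Cyp2d12, a cytochrome P450, stood at 0.106, 0.86 and 0.633 FPKM in transplant libraries, against 77.3, 64.5 and 65.6 FPKM in sham libraries (log2 fold change -5.54 ± 0.26). The sham libraries of these genes lay far above all transplant libraries. Cyp2d, Cyp2a, Ugt, Serpina1 and Slc22 genes have close copies, and how the authors assigned shared fragments is not known, so values of single copies are uncertain.

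**Figure D1:**
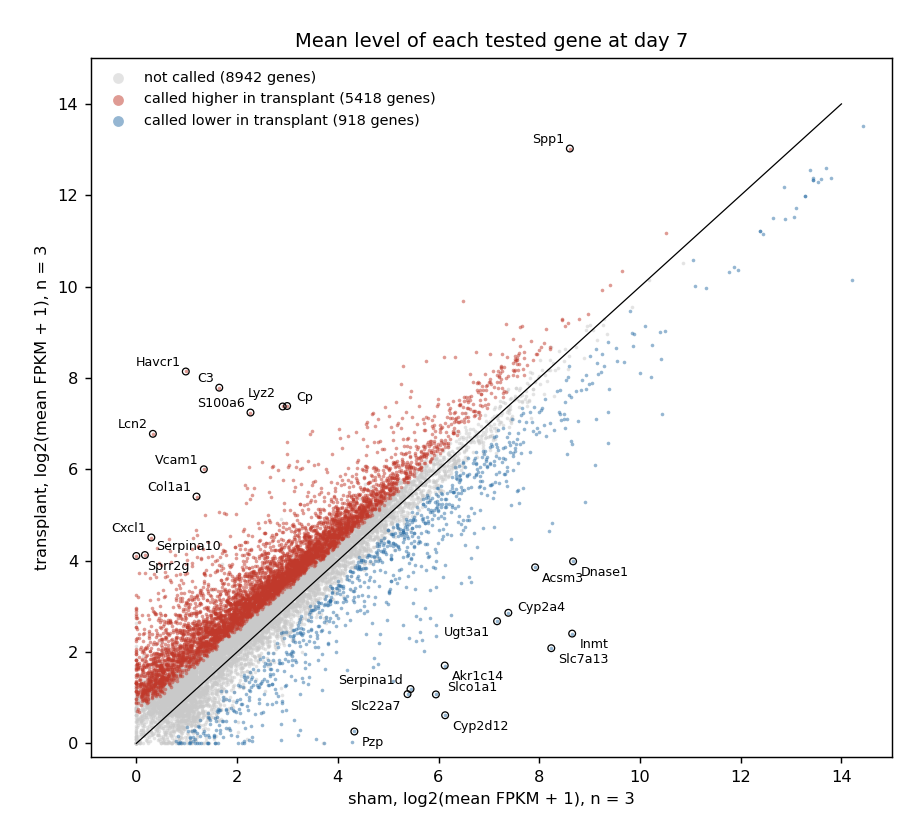
Mean FPKM of each tested gene at day 7, transplant on the vertical and sham on the horizontal axis, both as log2(mean FPKM + 1) with n = 3 libraries each. Red points are the 5418 genes called higher, blue points the 918 called lower, circles mark the 12 largest rises and falls, and the line marks equal levels.

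Tubular injury genes rose as a set without exception. All 30 tested members were called higher, 28 of them under balanced scaling, with a median log2 fold change of 3.0 against 0.41 over all tested genes. Clu, which encodes the secreted chaperone clusterin, stood at 836, 729.8 and 886 FPKM in transplants and 92, 82.6 and 91.3 FPKM in shams (log2 fold change 3.19 ± 0.18). Keratins of simple epithelia rose with it: Krt18 stood at 35.7, 38 and 38.5 FPKM in transplant libraries, against 4.71, 2.72 and 3.14 FPKM in sham libraries, and Krt19 at 14.2, 12.2 and 10.5 FPKM in transplants and 0.379, 0 and 0 FPKM in shams. All transplant libraries of the 3 genes exceeded all sham libraries. The log2 fold changes were 3.11 ± 0.31 for Krt18 and 3.57 ± 0.31 for Krt19, and both were called under balanced scaling.

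Genes that mark tubules which fail to redifferentiate showed the same direction. Of 26 tested, 24 rose and none fell (21 and none under balanced scaling), with a median of 1.67. The difference between transplant and sham was called higher at day 7 than at day 1 for 3 of them. It was called lower for 3, and both counts were the same under balanced scaling. The median change between these days was 0.003 on the log2 scale. This list shares members with other lists, among them Havcr1, Tpm1, Ccl2 and Klf6, so the lists are not independent. Its rise does not by itself show tubules that failed to redifferentiate. Csf1, the growth factor of macrophages, stood at 14.4, 19.7 and 22 FPKM in transplant libraries, against 1.23, 1.31 and 1.44 FPKM in sham libraries (log2 fold change 3.06 ± 0.24). Cdh6, a cadherin of the developing proximal tubule, stood at 14.2, 11.6 and 10.1 FPKM in transplants and 0.883, 0.661 and 0.657 FPKM in shams (log2 fold change 2.89 ± 0.20). Of 12 tested nephron development genes, 8 rose and none fell (4 and 1 under balanced scaling). Pax8 (log2 fold change 1.38 ± 0.18) and Jag1 (log2 fold change 1.12 ± 0.22) were among those that rose. A further 10 listed members did not pass the filter on low values.

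Cytoskeletal genes rose uniformly. All 26 tested actin and tubulin cytoskeleton genes were higher under both scalings, with a median of 1.76. Tubb2b, a beta tubulin, stood at 48.2, 37.7 and 41.5 FPKM in transplant libraries, against 4.71, 3.26 and 3.72 FPKM in sham libraries (log2 fold change 3.15 ± 0.20). Flna, which encodes the actin crosslinker filamin A, rose by 2.75 ± 0.23 and Actn1, which encodes alpha-actinin 1, by 2.73 ± 0.21 on the log2 scale. Junction genes were mixed: 13 of 20 rose and 1 fell (11 and 1 under balanced scaling). Cldn4, a claudin of the collecting duct, stood at 36.7, 28.6 and 28.6 FPKM in transplants and 2.55, 2.89 and 1.93 FPKM in shams, and Cldn1 at 51.8, 55.2 and 54.3 FPKM in transplant libraries, against 6.63, 7.71 and 5.34 FPKM in sham libraries. Both rose, by 3.23 ± 0.26 and 2.87 ± 0.25 on the log2 scale in that order. Cldn10, a claudin of the proximal tubule and thick limb, was the member called lower (log2 fold change -0.71 ± 0.26, adjusted p = 0.0339), and that call was lost when sham library 2 or 3, or transplant library 2 or 3, was left out.

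Most proximal tubule transporters fell. The proximal tubule marker sum given above, which shares members with this list, was lower in every transplant library. Of 45 tested solute transporters, 29 fell and 3 rose (35 and 1 under balanced scaling), with a median of -0.89. Slc22a8, the organic anion transporter OAT3 of the basolateral membrane, stood at 17.6, 21.6 and 17.2 FPKM in transplants and 116, 115 and 91.6 FPKM in shams (log2 fold change -2.45 ± 0.16). Slc34a1, the apical phosphate transporter, fell by 1.48 ± 0.18 and Slc5a2, the glucose transporter SGLT2, by 0.98 ± 0.22 on the log2 scale. The 3 that rose were Slc7a12, an amino acid transporter subunit, Slc5a1, the glucose transporter SGLT1 of the late proximal tubule, and Slc5a10, a mannose and fructose transporter. Slc7a12, at chr3:14480697-14505830, stood at 64.9, 102 and 47.2 FPKM in transplant libraries, against 10.7, 7.56 and 6.28 FPKM in sham libraries. The groups did not overlap, and the log2 fold change was 2.94 ± 0.51 (adjusted p = 0.000215). Slc5a1 and Slc5a10 were called only with FPKM as deposited.

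Endocytic receptors and brush border enzymes were split. Of 20 tested, 8 fell and 4 rose, and 13 fell and none rose under balanced scaling. Lrp2, which encodes the endocytic receptor megalin, stood at 117, 117 and 104 FPKM in transplants and 276, 234 and 189 FPKM in shams (log2 fold change -1.02 ± 0.22). Mep1b, which encodes the meprin beta subunit, stood at 1.07, 6.86 and 3.41 FPKM in transplant libraries, against 62.7, 42.7 and 44.6 FPKM in sham libraries (log2 fold change -3.59 ± 0.39). Cubn, which encodes megalin's partner cubilin, stood at 41.4, 49.7 and 47 FPKM in transplants and 79.2, 66.6 and 50.1 FPKM in shams and was not called (log2 fold change -0.47 ± 0.28, adjusted p = 0.186), though it was called lower under balanced scaling (log2 fold change -0.96). The 4 called higher, Mme, Enpep, Dpp4 and Ctsl, were not called under balanced scaling. The Enpep call was also lost without sham library 2, and the Ctsl call without sham library 1 or 2 or transplant library 1 or 3.

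Few transcription regulators of proximal tubule identity were called as deposited. Of 13 tested, 1 rose and 1 fell as deposited, and none rose and 5 fell under balanced scaling, with medians of -0.04 as deposited and -0.52 under balanced scaling, beside 0.41 and 0.02 over all tested genes. Hnf4a stood at 109.8, 98.2 and 110.2 FPKM in transplant libraries, against 133, 136 and 127 FPKM in sham libraries (log2 fold change -0.32 ± 0.23, adjusted p = 0.268), a difference not called as deposited and called lower under balanced scaling (log2 fold change -0.81). The Hnf4a transplant libraries lay just below the sham libraries.

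Genes known to differ between male and female mouse kidneys changed in both directions. Of 15 listed and tested, 10 fell and 4 rose under both scalings. Slc7a13, Slco1a1, Cyp2e1, Cyp7b1 and Acsm3, which are known to be higher in male than female mouse kidney, all fell. Cyp2e1, an ethanol-metabolising P450, stood at 21.1, 40.5 and 52.3 FPKM in transplants and 386, 488 and 573 FPKM in shams (log2 fold change -3.71 ± 0.25). Cyp7b1, an oxysterol and steroid hydroxylase, stood at 2.35, 6.01 and 2.89 FPKM in transplant libraries, against 50.9, 30.6 and 56.4 FPKM in sham libraries (log2 fold change -3.34 ± 0.41). Slco1a1, an organic anion transporter, stood at 0.791, 1.11 and 1.41 FPKM in transplants and 51.4, 71.2 and 59.6 FPKM in shams (log2 fold change -4.87 ± 0.22). In each, all transplant libraries lay below all sham libraries.

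Slc7a12, Cyp4a14 and Abcc3, known to be higher in female mouse kidney, rose. Cyp4a14, a fatty acid omega hydroxylase, stood at 80.9, 52.4 and 79.2 FPKM in transplant libraries, against 7.67, 3.5 and 2.69 FPKM in sham libraries (log2 fold change 3.75 ± 0.50). Abcc3, an efflux pump, stood at 6.17, 2.75 and 2.33 FPKM in transplants and 0.302, 0 and 0 FPKM in shams (log2 fold change 2.04 ± 0.31). Transcripts of the Y chromosome were present in all 6 libraries: Ddx3y stood at 16.6, 24.4 and 20.9 FPKM in transplant libraries, against 15.1, 18.7 and 14.3 FPKM in sham libraries. Xist, which is made from the inactive X chromosome of females, was at most 0.0315 FPKM in transplants and 0.0215 FPKM in shams. None of the 4 tested Y-linked genes was called, and the libraries of both groups carried the same pattern of sex chromosome transcripts.

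Most enzymes of drug, steroid and amino acid metabolism fell. Of 32 tested drug and steroid metabolism genes, 22 fell and 4 rose (24 and 2 under balanced scaling), with a median of -1.5. Fmo5, a flavin monooxygenase, stood at 2.26, 2.76 and 2.94 FPKM in transplants and 22.4, 29.2 and 24.9 FPKM in shams (log2 fold change -2.85 ± 0.14), and Ces1f, a carboxylesterase, at 23.1, 30 and 18.8 FPKM in transplant libraries, against 288, 281 and 305 FPKM in sham libraries (log2 fold change -3.57 ± 0.21). Of 36 tested genes of amino acid, NAD and one-carbon metabolism, 24 fell and 2 rose (29 and none under balanced scaling), with a median of -1.13. Agxt2, a mitochondrial aminotransferase, stood at 9.94, 13.1 and 14.3 FPKM in transplants and 46.4, 43.8 and 42.4 FPKM in shams (log2 fold change -1.76 ± 0.14). Acy3, an aminoacylase, fell by 2.78 ± 0.19 on the log2 scale.

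Genes of fatty acid oxidation, glucose production and glycolysis were counted separately. Of 36 tested fatty acid oxidation genes, 15 fell and 2 rose (29 and 1 under balanced scaling), with a median of -0.34. Acadm, the medium-chain acyl-CoA dehydrogenase, stood at 115, 96.8 and 112 FPKM in transplant libraries, against 251, 227 and 255 FPKM in sham libraries (log2 fold change -1.17 ± 0.14). Cpt1a, which admits long-chain fatty acids to mitochondria, stood at 104, 73.3 and 75.2 FPKM in transplants and 93.2, 97.3 and 78.6 FPKM in shams and was not called as deposited (adjusted p = 0.609), though it was called lower under balanced scaling (log2 fold change -0.59). Of 10 gluconeogenesis genes, 5 fell and none rose (9 and none under balanced scaling). G6pc, the glucose-6-phosphatase, stood at 78.2, 29.7 and 26.5 FPKM in transplant libraries, against 227, 176 and 159.8 FPKM in sham libraries (log2 fold change -2.20 ± 0.41). Of 17 tested glycolysis genes, 10 rose and none fell as deposited, and 6 rose and 2 fell under balanced scaling. Pfkp, the platelet-type phosphofructokinase, stood at 32.6, 23.6 and 24.4 FPKM in transplants and 8.25, 7.97 and 6.74 FPKM in shams (log2 fold change 1.68 ± 0.16). Gapdh and Ldha were not called, with log2 fold changes of 0.17 ± 0.16 and 0.14 ± 0.14.

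Respiratory chain genes are encoded by both the mitochondrial and the nuclear genome. All 13 protein-coding genes of the mitochondrial chromosome fell under both scalings, with a median of -1.25 and log2 fold changes between -1.55 and -0.83. Of 51 nuclear oxidative phosphorylation genes, 9 fell and 1 rose as deposited, with a median of -0.18, and 38 fell and none rose under balanced scaling. The sums of these nuclear genes were 7564 to 8401 FPKM in transplants and 8070 to 9883 FPKM in shams, so the groups overlapped. Fragments from nuclear copies of mitochondrial genes cannot be told from mitochondrial ones in these values. Ppargc1a, a coactivator of mitochondrial genes, stood at 16.6, 16.7 and 19.3 FPKM in transplant libraries, against 13.4, 14.2 and 13.2 FPKM in sham libraries and was not called (log2 fold change 0.34 ± 0.17, adjusted p = 0.107).

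Many cholesterol synthesis genes rose as deposited. Of 20 tested, 11 rose and none fell as deposited, and 7 rose and 3 fell under balanced scaling. Fdps, the farnesyl diphosphate synthase, stood at 28.8, 51.2 and 49.6 FPKM in transplants and 8.15, 13.9 and 12.1 FPKM in shams (log2 fold change 1.82 ± 0.29). Sqle, the squalene epoxidase, stood at 42.3, 59.6 and 54.8 FPKM in transplant libraries, against 20.3, 18.6 and 20.5 FPKM in sham libraries (log2 fold change 1.34 ± 0.18). Msmo1, a sterol methyl oxidase, stood at 35.6, 62.2 and 56.3 FPKM in transplants and 13.4, 15.2 and 15.9 FPKM in shams (log2 fold change 1.69 ± 0.27). The groups did not overlap for any of the 3 genes.

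**Figure D2:**
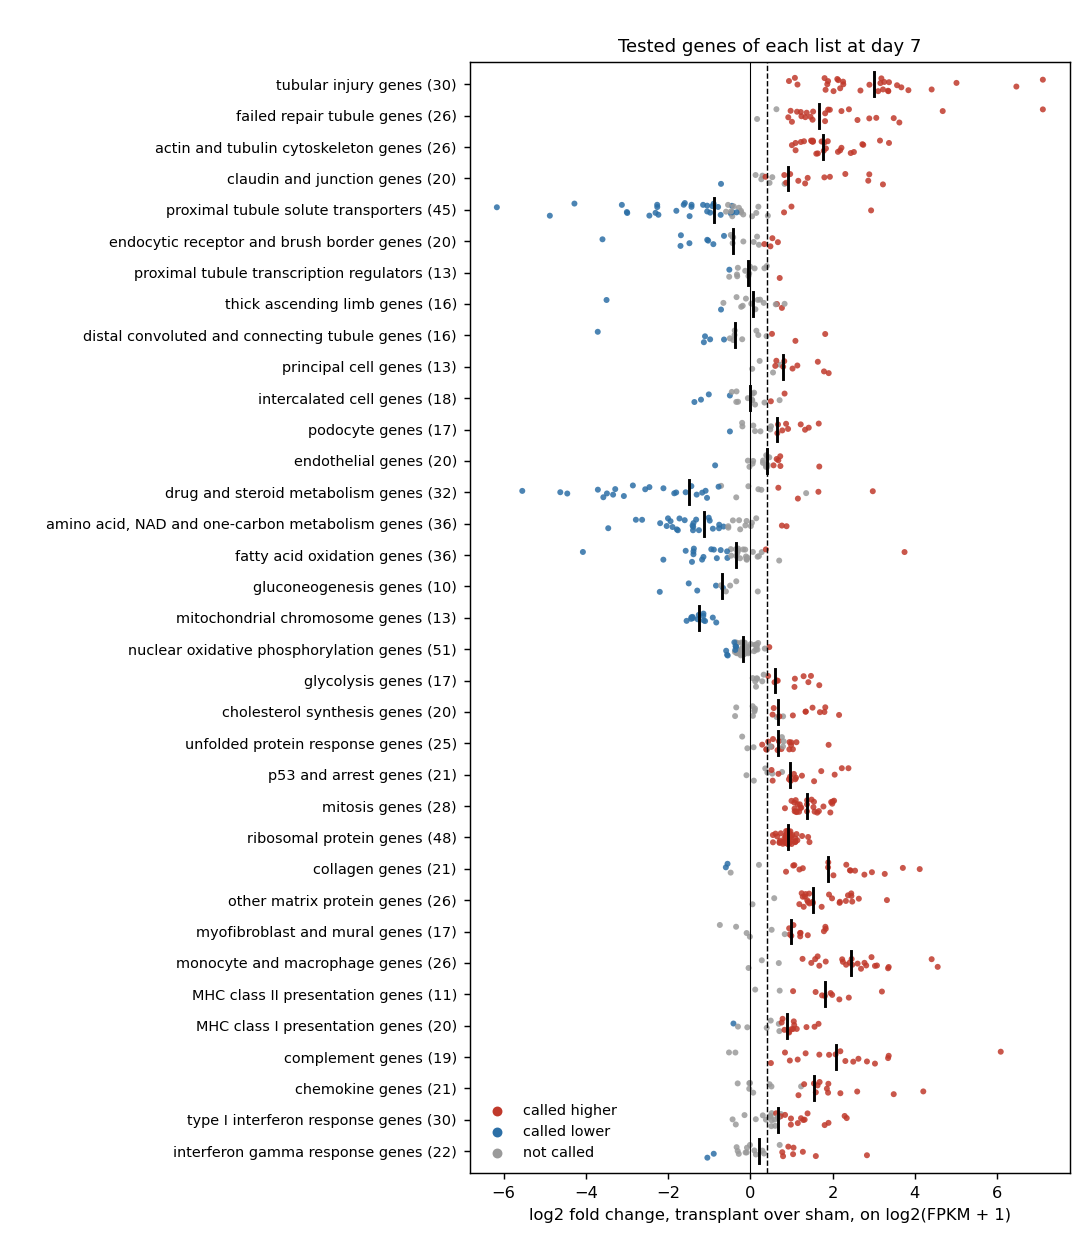
Log2 fold change at day 7, transplant over sham, of each tested gene in 35 of the 61 lists, with the number of tested genes in brackets. Red and blue points are called higher and lower with FPKM as deposited, grey points are not called, black bars are list medians, and the dashed line is the median of all tested genes at 0.41.

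In the thick ascending limb, 2 of 16 tested genes rose and 2 fell (none and 5 under balanced scaling). Umod, which encodes uromodulin, stood at 518, 654 and 543 FPKM in transplant libraries, against 687, 531 and 629 FPKM in sham libraries and Slc12a1, the sodium-potassium-chloride transporter, at 208, 254 and 173 FPKM in transplants and 218, 183 and 177 FPKM in shams. Both groups overlapped and neither was called as deposited, and Umod was called lower under balanced scaling (log2 fold change -0.60). Egf, the epidermal growth factor made in the thick limb and distal tubule, lies at chr3:129677565-129755316 and stood at 16.4, 31.1 and 34 FPKM in transplant libraries, against 338, 303 and 272 FPKM in sham libraries. Its log2 fold change was -3.50 ± 0.20 (adjusted p = 7.17e-10), and the next lowest in the list was Cldn10 at -0.71.

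In the distal convoluted and connecting tubule, 5 of 16 tested genes fell and 3 rose (10 and 2 under balanced scaling). Pvalb, a calcium buffer of the early distal convoluted tubule, was listed at 0 in every transplant library and stood at 15.2, 9.61 and 12 FPKM in sham libraries. Kl, which encodes the FGF23 co-receptor Klotho, stood at 60.7, 73 and 87.9 FPKM in transplants and 166, 174 and 136 FPKM in shams (log2 fold change -1.10 ± 0.18). All transplant libraries of both genes lay below all sham libraries. Trpv5, the apical calcium channel of the connecting tubule, stood at 14.3, 22.7 and 30.9 FPKM in transplant libraries, against 5.93, 6.05 and 4.36 FPKM in sham libraries (log2 fold change 1.82 ± 0.26). Calb1, the calbindin that carries calcium through the same cells, stood at 125, 98.8 and 155 FPKM in transplants and 106, 103 and 117 FPKM in shams, and its groups overlapped (log2 fold change 0.19 ± 0.20, adjusted p = 0.457).

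Most principal cell genes of the collecting duct rose. Of 13 tested, 9 rose and none fell (5 and none under balanced scaling), with a median of 0.80. Aqp2, the vasopressin-regulated water channel, stood at 63.2, 71.7 and 76.3 FPKM in transplant libraries, against 23.4, 19.5 and 16.4 FPKM in sham libraries (log2 fold change 1.79 ± 0.26). Scnn1b, a subunit of the epithelial sodium channel, stood at 27, 21.1 and 25.9 FPKM in transplants and 11.7, 9.36 and 10.7 FPKM in shams (log2 fold change 1.14 ± 0.19). All transplant libraries exceeded all sham libraries. Genes of the thin limb of the loop, which lies in the medulla, are given beside them. Of 10 listed, 8 were tested, 5 rose and none fell (3 and none under balanced scaling), with a median of 0.81. Their sum was 342 to 368 FPKM in transplants and 187 to 236 FPKM in shams. Cryab, which encodes a small heat shock protein, stood at 113, 106 and 118 FPKM in transplant libraries, against 34.2, 20.1 and 44.7 FPKM in sham libraries (log2 fold change 1.81 ± 0.28). How much medulla each sample held, and its part in these values, was not tested. Of 18 tested intercalated cell genes, 2 rose and 4 fell (none and 8 under balanced scaling). Slc26a4, the apical chloride-bicarbonate exchanger pendrin, stood at 10.8, 10.7 and 12.7 FPKM in transplants and 22.7, 26.1 and 23.1 FPKM in shams (log2 fold change -1.01 ± 0.15).

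Podocyte and endothelial genes had medians closer to that of all genes. Of 17 tested podocyte genes, 9 rose and 1 fell (5 and 2 under balanced scaling). Nphs1, which encodes the slit diaphragm protein nephrin, stood at 4.24, 5.09 and 5.36 FPKM in transplant libraries, against 4.35, 4.68 and 4.74 FPKM in sham libraries and was not called (adjusted p = 0.776). Kirrel, which encodes its relative Neph1, rose by 1.66 ± 0.22 and Nes, which encodes the intermediate filament nestin, by 1.33 ± 0.18 on the log2 scale. Of 20 tested endothelial genes, 6 rose and 1 fell (1 and 2 under balanced scaling), with a median of 0.40, close to that of all genes. Pecam1 stood at 18.7, 13.8 and 12 FPKM in transplants and 11.4, 11.7 and 9.92 FPKM in shams and was not called (adjusted p = 0.0863).

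Most arrest, cell death and immediate early genes rose as deposited. Of 21 tested p53 and arrest genes, 15 rose and none fell (8 and 1 under balanced scaling). Cdkn1a, the cell cycle inhibitor p21, stood at 21.1, 11.4 and 13 FPKM in transplant libraries, against 1.39, 2.07 and 2.65 FPKM in sham libraries (log2 fold change 2.39 ± 0.35), and Eda2r, a p53-induced receptor, at 2.76, 3.19 and 2.38 FPKM in transplants and 0, 0.314 and 0.12 FPKM in shams (log2 fold change 1.73 ± 0.23). Of 24 tested cell death genes, 16 rose and none fell (8 and 1 under balanced scaling). Gsdmd, the pore-forming protein of pyroptosis, stood at 6.95, 5.97 and 4.1 FPKM in transplant libraries, against 0.606, 0.942 and 1.43 FPKM in sham libraries (log2 fold change 1.74 ± 0.29). Of 18 tested immediate early genes, 13 rose and none fell (11 and none under balanced scaling), among them Klf6 at 44.2, 55.9 and 50.6 FPKM in transplants and 8.34, 9.79 and 8.0 FPKM in shams.

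Oxidant defence genes went both ways. Of 19 tested NRF2 targets, 10 rose and 2 fell (6 and 3 under balanced scaling). Akr1b8, an aldo-keto reductase, stood at 15.2, 16.6 and 12.2 FPKM in transplant libraries, against 0.592, 0.606 and 0.645 FPKM in sham libraries (log2 fold change 3.27 ± 0.28), while Me1, malic enzyme 1, stood at 50.8, 66.5 and 57.7 FPKM in transplants and 154, 145 and 168 FPKM in shams (log2 fold change -1.41 ± 0.12). Hmox1, heme oxygenase 1, stood at 24, 15.7 and 16.4 FPKM in transplant libraries, against 15.9, 15.2 and 10 FPKM in sham libraries and was not called (adjusted p = 0.156). Of 20 tested antioxidant and iron genes, 8 rose and 6 fell (5 and 10 under balanced scaling). The 6 that fell were Sod1, Sod2, Cat, Gpx1, Gpx3 and Prdx5, which remove superoxide and peroxides. Their relatives Sod3 and Prdx2 were called higher as deposited and not called under balanced scaling. The Gpx1 call was lost without sham library 3 or transplant library 1 or 2, and Gpx3 was not lower under quantile normalization (log2 fold change 0.35). Sod1 stood at 165, 169 and 194 FPKM in transplants and 335, 302 and 460.4 FPKM in shams (log2 fold change -1.03 ± 0.15). Acsl4, which primes membrane lipids for ferroptosis, stood at 39.4, 43.3 and 42.6 FPKM in transplant libraries, against 15.6, 14.1 and 13 FPKM in sham libraries (log2 fold change 1.49 ± 0.16). Gpx4, which repairs such lipids, stood at 264, 222 and 232 FPKM in transplants and 259, 225 and 237 FPKM in shams, and its groups overlapped (log2 fold change -0.01 ± 0.17, adjusted p = 0.978), though under balanced scaling it was called lower (log2 fold change -0.50).

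Of 25 tested unfolded protein response genes, 16 rose and none fell as deposited, and 3 rose and 3 fell under balanced scaling. Hspa5, the endoplasmic reticulum chaperone BiP, stood at 314, 269.7 and 313 FPKM in transplant libraries, against 152, 127 and 173 FPKM in sham libraries (log2 fold change 0.99 ± 0.17). All 48 tested ribosomal protein genes rose, 25 of them under balanced scaling, with a median of 0.91. Rps4x stood at 467, 385 and 388 FPKM in transplants and 182, 173 and 228 FPKM in shams (log2 fold change 1.09 ± 0.12). Ribosomal protein genes have many processed copies, so single values are uncertain.

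Cell cycle genes rose at both stages tested. Of 30 tested G1 to S phase and replication genes, 23 rose and 1 fell (10 and 1 under balanced scaling). Rrm2, a subunit of ribonucleotide reductase, stood at 20.3, 17 and 10.1 FPKM in transplant libraries, against 1.48, 1.27 and 1.21 FPKM in sham libraries (log2 fold change 2.81 ± 0.31). All 28 tested mitosis genes rose, 22 of them under balanced scaling, with a median of 1.38. Ube2c, a ubiquitin-conjugating enzyme of mitotic exit, stood at 5.27, 6.16 and 2.77 FPKM in transplants and 0.624, 0.148 and 0.44 FPKM in shams (log2 fold change 1.99 ± 0.38), and Cdk1, the mitotic kinase, at 4.6, 2.23 and 1.67 FPKM in transplant libraries, against 0.412, 0.0699 and 0 FPKM in sham libraries (log2 fold change 1.67 ± 0.29). In both genes transplant library 3 was the lowest of the transplants yet above every sham library.

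Promoter letters of the mitosis genes were read next. In the windows that RefSeq gives for gene starts on GRCm38.p6, which run from 250 bases before to 50 bases after a start, 22 of the 28 genes had a window. CCAAT on either strand was in 82.6% of their 23 windows and in 37.4% of all 32851 windows. TTTGAA on either strand, the core of the cell cycle element called CHR, was in 78.3% and 17.9% of windows. In the 250 bases before the start alone, TTTGAA was in 34.8% and 16.0%. The 250 bases before the start of Cdk1 (chr10:69352913-69353162, minus strand) and Ube2c (chr2:164769679-164769928, plus strand) are printed to show how the letters are placed, with TTTGAA and CCAAT of either strand in capitals.
Cdk1: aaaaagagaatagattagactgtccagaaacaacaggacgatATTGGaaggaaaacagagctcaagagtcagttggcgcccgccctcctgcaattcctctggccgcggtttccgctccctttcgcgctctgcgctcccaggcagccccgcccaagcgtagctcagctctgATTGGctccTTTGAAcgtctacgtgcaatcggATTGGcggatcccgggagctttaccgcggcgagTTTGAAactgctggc
Ube2c: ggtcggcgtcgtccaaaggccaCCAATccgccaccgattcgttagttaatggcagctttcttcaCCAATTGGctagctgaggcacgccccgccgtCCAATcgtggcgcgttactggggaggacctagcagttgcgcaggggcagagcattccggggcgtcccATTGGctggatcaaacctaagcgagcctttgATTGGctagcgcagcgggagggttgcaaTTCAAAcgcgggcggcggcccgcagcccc
Cdk1 held 2 TTTGAA and 3 CCAAT matches there and Ube2c 1 and 6, with 1 overlapping pair of CCAAT matches on opposite strands in Ube2c. A match of letters is a description and not a bound site.

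Growth factor genes were mixed. Of 27 tested, 12 rose and 3 fell as deposited, and 4 rose and 7 fell under balanced scaling. Pdgfb, a mitogen for mural cells and fibroblasts, stood at 10.1, 14.7 and 12.7 FPKM in transplants and 4.48, 2.88 and 4.33 FPKM in shams (log2 fold change 1.46 ± 0.21). The 3 that fell were Egf, Igfbp1 and Fgf1. Of 26 tested TGF-beta and Wnt genes, 17 rose and none fell (13 and 1 under balanced scaling). Gdf15, a stress-induced ligand of that superfamily, stood at 14.8, 14.1 and 18.9 FPKM in transplant libraries, against 1.16, 2.37 and 1.49 FPKM in sham libraries (log2 fold change 2.68 ± 0.34), and Tgfb1 at 11.1, 8.72 and 6.23 FPKM in transplants and 2.25, 2.07 and 2.97 FPKM in shams (log2 fold change 1.47 ± 0.25).

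Matrix genes rose. The fibroblast and mural marker sum given above includes Col1a1, a listed collagen, and Acta2, so it is not separate from these genes. That sum was also higher in every transplant library, and its part in these values was not tested. Of 21 tested collagens, 17 rose and 2 fell (15 and 3 under balanced scaling), with a median of 1.90. Col1a2, a chain of fibrillar collagen I, stood at 96.8, 58 and 43.6 FPKM in transplant libraries, against 5.37, 5.55 and 5.89 FPKM in sham libraries (log2 fold change 3.27 ± 0.25). The 2 that fell, Col4a3 and Col4a4, encode chains of the glomerular basement membrane. Other collagen IV genes, Col4a5, Col4a1 and Col4a2, were called higher under both scalings. The Col4a3 call was lost without sham library 1 or 2 or transplant library 2. Col4a4 stood at 21.2, 17.6 and 19.1 FPKM in transplants and 28.8, 33.3 and 24.8 FPKM in shams (log2 fold change -0.55 ± 0.15). Of 26 other matrix genes, 24 rose and none fell (23 and none under balanced scaling). Sparc, a collagen-binding matrix protein, stood at 223, 147 and 120.4 FPKM in transplant libraries, against 32.4, 26.8 and 30 FPKM in sham libraries (log2 fold change 2.38 ± 0.18). Of 27 tested protease and crosslinking genes, 25 rose and 1 fell (23 and 1 under balanced scaling). Lox, the collagen crosslinker lysyl oxidase, stood at 11.3, 6.8 and 8.13 FPKM in transplants and 0.503, 0.303 and 0.222 FPKM in shams (log2 fold change 2.84 ± 0.28), and the member that fell was Timp3, an inhibitor of matrix proteases, at 197, 208 and 223 FPKM in transplant libraries, against 434, 478 and 367 FPKM in sham libraries (log2 fold change -1.01 ± 0.16). Of 17 tested myofibroblast and mural genes, 11 rose and none fell as deposited, and 7 rose and 2 fell under balanced scaling. Acta2, smooth muscle actin, stood at 42.8, 32.2 and 14.5 FPKM in transplants and 11.6, 10.1 and 11.9 FPKM in shams (log2 fold change 1.21 ± 0.29), and was not called under balanced scaling.

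The 3 transplant libraries did not vary alike in all lists. Of the 17 collagens called higher, 16 were highest in transplant library 1 and all 17 lowest in transplant library 3. The same holds for myofibroblast genes, with 10 of 11 highest in library 1 and all 11 lowest in library 3. All 28 mitosis genes were lowest in library 3, and 21 were highest in library 1. Of 23 macrophage genes called higher, 21 were highest in library 1 and 15 lowest in library 3. Over all 5418 genes called higher, 49.7% were highest in library 1 and 39.2% lowest in library 3.

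The median collagen stood at 1.33, 0.933 and 0.66 times its transplant mean in libraries 1, 2 and 3. Of 11 called cholesterol synthesis genes, 10 were lowest in library 1. Injury genes were spread over the libraries, with 8, 10 and 12 of 30 highest in libraries 1, 2 and 3. C3 was lowest in library 1, at 150.3, 211 and 299 FPKM in libraries 1, 2 and 3, whereas Col1a1 was highest there, at 61.2, 39.9 and 23 FPKM. Numbers of replicates carry no order of their own.

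**Figure D3:**
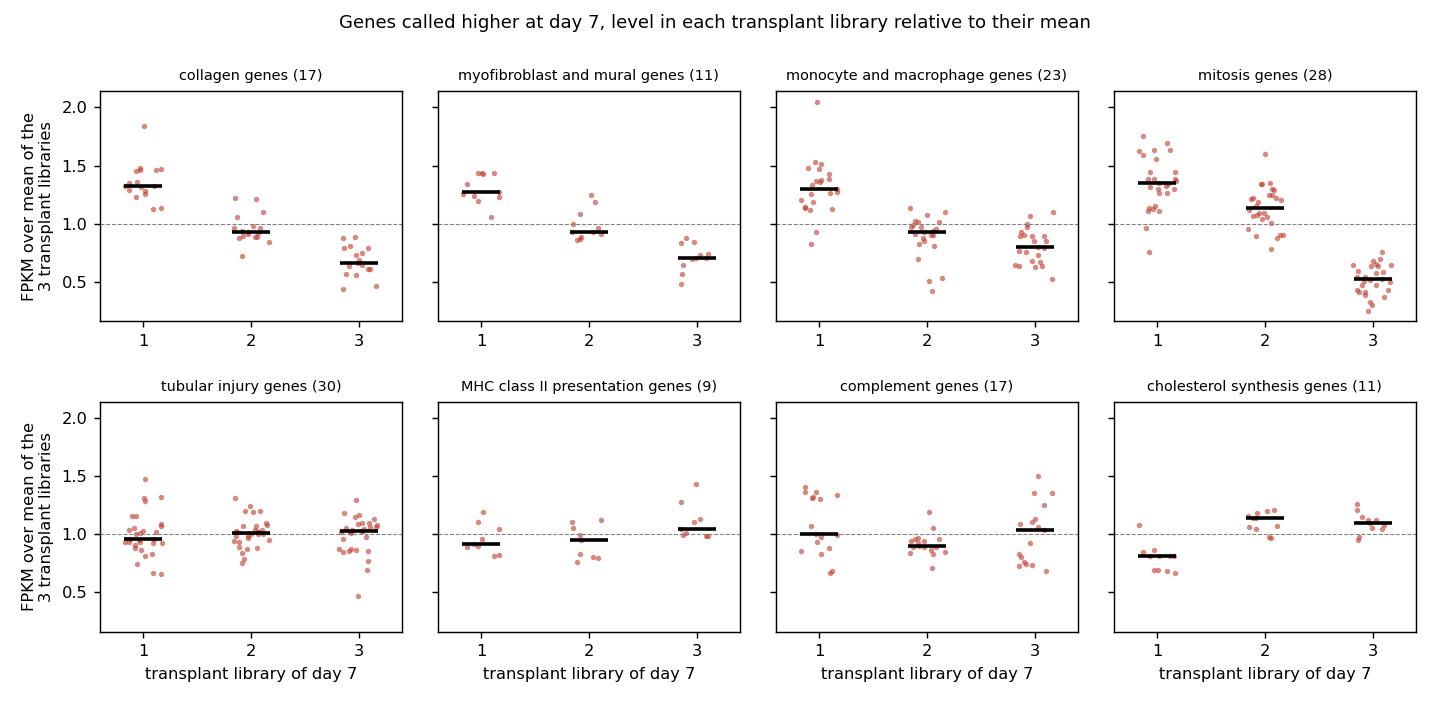
Level of each gene called higher at day 7 in the 3 transplant libraries, as FPKM over the gene's mean of those libraries, for 8 lists with the number of genes in brackets. Points are genes and black bars are medians, which for collagens stand at 1.33, 0.933 and 0.66 in libraries 1, 2 and 3.

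Among leukocyte genes, most of those of macrophages rose, and markers of T cells and natural killer cells were at low levels. Of 26 tested monocyte and macrophage genes, 23 rose and none fell (23 and 1 under balanced scaling), with a median of 2.44. Apoe, which macrophages and injured tubules both make, stood at 418, 272 and 299 FPKM in transplant libraries, against 57.3, 45.9 and 54.5 FPKM in sham libraries (log2 fold change 2.61 ± 0.24). Ccr2, the receptor of inflammatory monocytes, stood at 15.6, 14.2 and 11.8 FPKM in transplants and 1.68, 0.485 and 1.31 FPKM in shams (log2 fold change 2.82 ± 0.35). The macrophage marker sum moved with these genes and, as given above, was higher in every transplant library, and its part in these values was not tested. Arg1 and Nos2, often used to mark polarised macrophages, were at most 0.861 and 0.424 FPKM in transplants and 0.0661 and 0.264 FPKM in shams.

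Only 6 of 28 T cell genes passed the filter, and limma called none of them under either scaling. The markers Cd3e, Cd3d, Cd3g and Trac summed to 0.493 to 2.22 FPKM in transplants and 0.834 to 1.68 FPKM in shams. Cd8a stood at 0.928, 0.583 and 0.297 FPKM in transplant libraries, against 0, 0.256 and 0.175 FPKM in sham libraries, below the filter. The marker sums overlapped between the groups, whereas Cd8a was higher in every transplant library than in any sham library and was not tested. Ncr1, Klrb1c and Prf1 of natural killer cells summed to at most 0.0546 FPKM in transplants and 0.0388 FPKM in shams, and Ifng, the cytokine that activated T and natural killer cells release, was listed at 0 in all 6 libraries. The B and plasma cell list summed to 15.4 to 30.3 FPKM in transplants and 6.1 to 9.58 FPKM in shams. Of its 5 tested genes 2 rose (1 under balanced scaling): Sdc1, a heparan sulfate proteoglycan that plasma cells and epithelia both make, which stood at 10.6, 7.42 and 6.53 FPKM in transplants and 0.854, 1.45 and 1.51 FPKM in shams (adjusted p = 0.000174), and Ighm, the heavy chain of IgM, with a log2 fold change of 1.18 ± 0.41 and no call under balanced scaling. The Ighm call was lost without transplant library 1 or 3 or sham library 2 or 3, with adjusted p of 0.0802, 0.0619, 0.064 and 0.0804 in that order. Neutrophil markers summed to 2.69 to 14.4 FPKM in transplants and 0.204 to 1.37 FPKM in shams, and S100a9 stood at 1.28, 8.76 and 1.91 FPKM in transplant libraries, against 0, 0 and 0.121 FPKM in sham libraries, with transplant library 2 far above the others. Of 4 tested neutrophil genes 2 rose (1 under balanced scaling). With depth unknown, these levels set no limit on how many such cells were present.

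Most signals that draw or activate leukocytes rose. Of 21 tested chemokines, 13 rose and none fell (11 and none under balanced scaling). Ccl2, the ligand of Ccr2, stood at 13, 22 and 8.54 FPKM in transplants and 0, 1.04 and 0.0714 FPKM in shams (log2 fold change 3.49 ± 0.35), and Cx3cl1 stood at 47.8, 42.9 and 33.7 FPKM in transplant libraries, against 14.1, 8.66 and 8.89 FPKM in sham libraries (log2 fold change 1.90 ± 0.25). The lymphocyte attractants Cxcl9 and Ccl5 were not called: Cxcl9 stood at 0.743, 0.698 and 0.15 FPKM in transplants and 0.72, 0.0513 and 0.914 FPKM in shams, and Ccl5 stood at 2.31, 0.888 and 2.95 FPKM in transplant libraries, against 2.27, 1.4 and 2.33 FPKM in sham libraries. Cxcl13, which draws B cells, was at most 0.0481 FPKM in transplants and listed at 0 in shams. Cxcl9 and Ccl5 groups overlapped, with adjusted p of 0.988 and 0.966. By contrast, Cxcl10 of the same list was called higher as deposited (log2 fold change 1.59) and not under balanced scaling. Cxcl16 was called higher under both scalings.

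Of 23 tested cytokine and NF-kB genes, 19 rose and none fell (17 and none under balanced scaling). Il33, a nuclear alarm cytokine, stood at 12.5, 10.9 and 9.68 FPKM in transplants and 0.949, 0.493 and 1.12 FPKM in shams (log2 fold change 2.70 ± 0.29), and Socs3, the feedback inhibitor of STAT3, at 5.32, 9.43 and 8.75 FPKM in transplant libraries, against 0.499, 0 and 0.13 FPKM in sham libraries (log2 fold change 2.86 ± 0.32). Il1b stood at 0, 1.33 and 1.06 FPKM in transplants and 0.842, 0.723 and 0.61 FPKM in shams and was not called (adjusted p = 0.948), and Il6 was at most 0.0896 FPKM in transplants and listed at 0 in shams.

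Of 19 tested complement genes, 17 rose and none fell as deposited, and 14 rose and 2 fell under balanced scaling. The list had a median of 2.07. Cfb, factor B of the alternative pathway, stood at 76.5, 85.8 and 113 FPKM in transplant libraries, against 117, 117 and 116 FPKM in sham libraries and was not called as deposited (adjusted p = 0.181), and was called lower under balanced scaling (log2 fold change -0.85). Of 17 tested coagulation genes, 11 rose and 2 fell (9 and 2 under balanced scaling). F3, tissue factor, stood at 30, 35.1 and 35 FPKM in transplants and 6.04, 7.77 and 5.93 FPKM in shams (log2 fold change 2.19 ± 0.18), and Plaur, the urokinase receptor, at 10.6, 13.7 and 9.98 FPKM in transplant libraries, against 0.302, 0.389 and 0.265 FPKM in sham libraries (log2 fold change 3.23 ± 0.42).

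Most antigen presentation genes rose, with a higher median for MHC class II than for class I. Of 11 tested class II genes, 9 rose under both scalings, with a median of 1.81, and of 20 class I genes 13 rose and 1 fell (6 and 3 under balanced scaling), with a median of 0.88. H2-Eb1, a class II beta chain, stood at 80.7, 99.8 and 89.6 FPKM in transplants and 25, 16.8 and 26.9 FPKM in shams (log2 fold change 1.95 ± 0.24). Ctss, the protease that trims the invariant chain, stood at 58.5, 53.5 and 56.5 FPKM in transplant libraries, against 6.78, 4.35 and 4.76 FPKM in sham libraries (log2 fold change 3.20 ± 0.26). B2m, the light chain of class I, stood at 381, 426 and 571 FPKM in transplants and 181, 144 and 206 FPKM in shams (log2 fold change 1.37 ± 0.17). H2 genes are alike and differ between strains, so fragments may be misassigned and strains not matched to the reference may be miscounted. The difference between the lists was not tested.

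Some interferon genes rose. Of 30 tested type I interferon genes, 14 rose and none fell as deposited, and 6 rose and 1 fell under balanced scaling, with a median of 0.67. Ifit3 stood at 27.3, 32.1 and 26.8 FPKM in transplant libraries, against 3.87, 3.43 and 8.24 FPKM in sham libraries (log2 fold change 2.34 ± 0.31), and its neighbour Ifit3b at 13.5, 15.1 and 13.7 FPKM in transplants and 2.15, 1.39 and 2.87 FPKM in shams (log2 fold change 2.29 ± 0.22). Both encode inhibitors of foreign RNA translation and are close copies, so their values are uncertain singly. Bst2, which encodes the membrane protein tetherin, stood at 11.2, 10.1 and 15.8 FPKM in transplant libraries, against 4.07, 3.46 and 5.92 FPKM in sham libraries (log2 fold change 1.29 ± 0.36), a call lost under balanced scaling. Isg15, a ubiquitin-like protein, stood at 1.94, 3.95 and 2.7 FPKM in transplants and 2.18, 0.318 and 3.44 FPKM in shams, and its groups overlapped (adjusted p = 0.314).

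Of 22 tested interferon gamma genes, 8 rose and 2 fell as deposited, and 3 rose and 3 fell under balanced scaling, with a median of 0.21 and of -0.09 under balanced scaling, both below the median of all genes under the same scaling. Irf1, the main transcription factor of the response, stood at 12.8, 14.4 and 13 FPKM in transplant libraries, against 4.82, 4.35 and 5.71 FPKM in sham libraries (log2 fold change 1.28 ± 0.27). The 2 that fell, Gbp6 and Gbp10, are guanylate-binding proteins, and Gbp10 stood at 0.416, 0.193 and 0.234 FPKM in transplants and 1.33, 1.28 and 1.5 FPKM in shams (log2 fold change -0.89 ± 0.26). The call of Gbp6 was lost when any of the sham libraries, or transplant library 1 or 2, was left out.

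GAAA followed by any 2 bases and GAAA again, read on either strand and the core of the interferon-stimulated response element, was in 61.5% of the 13 windows of called type I interferon genes, in 45.5% of the 11 windows of called interferon gamma genes and in 3.44% of all windows. In the bases before the start alone it was in 38.5%, 45.5% and 2.98%. Ifit3 (chr19:34583279-34583528, plus strand), Bst2 (chr8:71537473-71537722, minus strand) and the class II gene H2-Eb1 (chr17:34305617-34305866, plus strand) are printed as the 250 bases before the start, the interferon genes with that motif and H2-Eb1 with CCAAT of either strand in capitals.
Ifit3: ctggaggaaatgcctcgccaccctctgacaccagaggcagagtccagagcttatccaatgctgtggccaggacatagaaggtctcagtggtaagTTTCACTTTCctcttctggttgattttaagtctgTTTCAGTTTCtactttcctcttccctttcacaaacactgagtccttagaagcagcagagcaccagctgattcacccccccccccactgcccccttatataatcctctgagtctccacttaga
Bst2: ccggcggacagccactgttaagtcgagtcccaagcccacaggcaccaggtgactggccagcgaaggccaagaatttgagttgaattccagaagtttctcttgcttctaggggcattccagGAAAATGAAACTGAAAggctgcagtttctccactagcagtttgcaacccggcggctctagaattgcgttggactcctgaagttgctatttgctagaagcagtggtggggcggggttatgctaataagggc
H2-Eb1: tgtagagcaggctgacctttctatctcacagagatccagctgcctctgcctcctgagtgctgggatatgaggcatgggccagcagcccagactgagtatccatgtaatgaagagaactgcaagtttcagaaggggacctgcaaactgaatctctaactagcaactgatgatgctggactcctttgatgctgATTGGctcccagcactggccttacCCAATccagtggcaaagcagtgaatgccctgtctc
Ifit3 held 2 matches of the interferon motif, both on the opposite strand, and the 2 matches in Bst2 overlapped. CCAAT was in 62.5% of the 8 windows of called class II genes, against 37.4% of all windows, and H2-Eb1 held 2 matches.

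**Figure D4:**
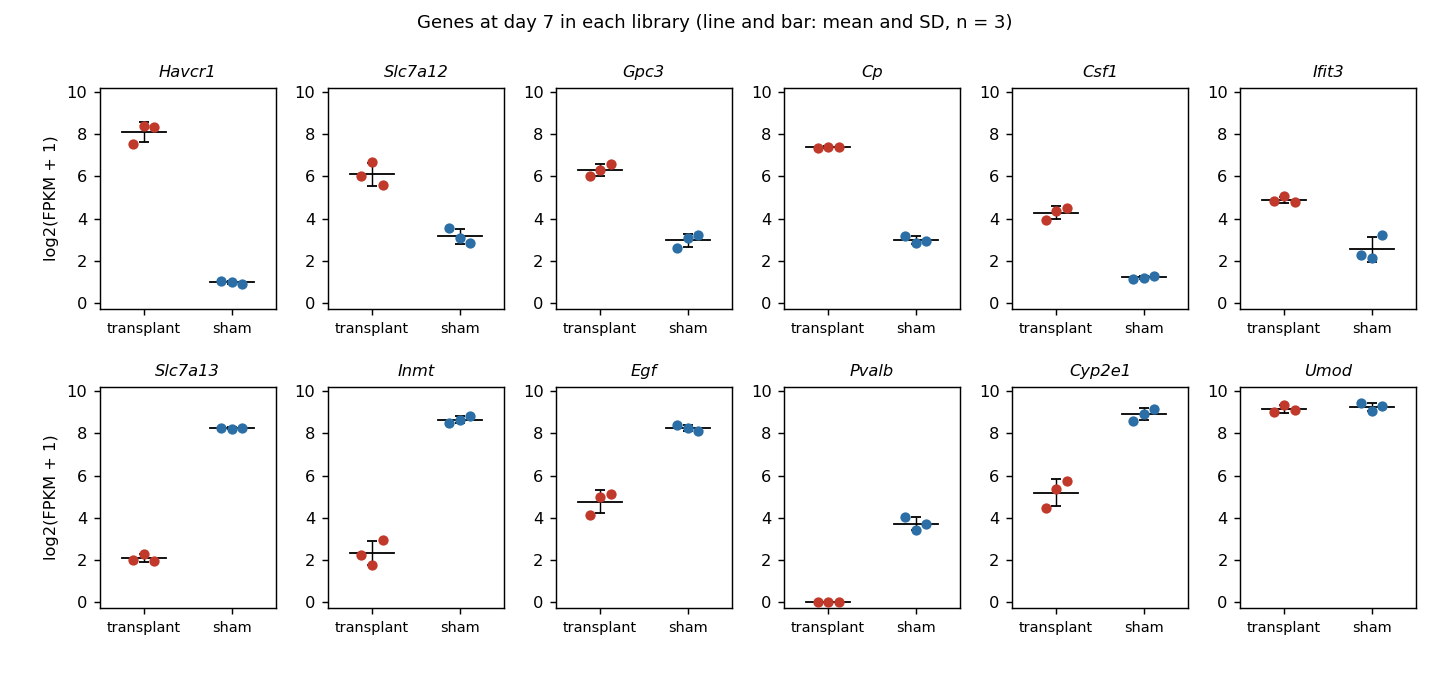
Levels of 12 genes in each library of day 7 as log2(FPKM + 1), transplant left and sham right, with the mean and SD of 3 libraries. The groups are apart for 11 genes, and for Umod the 2 groups overlap, between 531 and 654 FPKM.

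Set against day 1, the transplant effect of day 7 was higher for 467 genes (3.06% of those tested) and lower for 200 (1.31%), by the test of the difference between the effects. Under balanced scaling these counts were 307 (2.01%) and 265 (1.73%). Macrophage genes held 15 of the higher calls among 26 tested (13 under balanced scaling), complement genes 10 of 19 (9), cholesterol synthesis genes 11 of 20 (8), class II genes 5 of 11 (5) and proximal tubule transporters 16 of 45 (12), the transporters also with 3 lower (3 under balanced scaling). For gluconeogenesis genes 5 of 10 had a higher effect at day 7 (4 under balanced scaling). Lower effects than at day 1 were found for 7 of 30 injury genes (7 under balanced scaling), 7 of 26 cytoskeleton genes (8) and 6 of 19 NRF2 targets (7). In addition 1 injury gene and 1 cytoskeleton gene had a higher effect at day 7 (1 of each under balanced scaling). The 5 largest higher differences were in Slc7a12, Gpc3, Calb1, Ptgds and Serpina1f. Gpc3, a heparan sulfate proteoglycan, stood at 64.7, 78.5 and 95.7 FPKM in transplant libraries, against 5.15, 7.52 and 8.26 FPKM in sham libraries at day 7, with a transplant effect of 3.34 at day 7, against -0.60 at day 1. Slc7a12 had effects of 2.94 at day 7 and -1.88 at day 1, and Calb1 of 0.19 at day 7 and -3.53 at day 1. The effect of Calb1 was near 0 at day 7 and below 0 at day 1.

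The 5 largest lower differences from day 1 were in Krt20, Plin2, Hmga1, Pdk4 and Cyp2a4. Krt20, a keratin of injured tubules, stood at 10.6, 13.2 and 13.1 FPKM in transplants and 0.121, 0 and 0 FPKM in shams at day 7, with effects of 3.67 at day 7 and 8.50 at day 1. Plin2, which coats lipid droplets, had effects of 0.91 at day 7 and 4.84 at day 1. Cyp2a4 had effects of -4.54 at day 7 and -1.38 at day 1, so its fall was larger at day 7. Egf had effects of -5.51 at day 1, -3.50 at day 7 and -1.31 at day 14, and both differences were called.

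Set against day 14, the effect of day 7 was higher for 40 genes (0.262%) and lower for 54 (0.353%), and under balanced scaling for 20 (0.131%) and 64 (0.419%). Leaving out 1 library gave between 11 higher calls without sham library 1 of day 7 and 66 without transplant library 1 of day 14, and between 25 lower calls without transplant library 2 of day 14 and 69 without transplant library 3 of day 1. Unfolded protein response genes held 6 of the higher calls among 25 tested, under both scalings. Drug and steroid metabolism genes held 6 of the lower calls among 32 tested (7 under balanced scaling) and 2 of the higher calls (1 under balanced scaling), and amino acid, NAD and one-carbon metabolism genes 6 among 36 tested, under both scalings. Hspa5 had a transplant effect of 0.99 at day 7 and -1.08 at day 14. The 5 largest higher differences were in Sprr2g, Nat8f5, Fkbp5, Alas1 and Sdf2l1. The Sprr2g call held only when the library left out was a transplant of day 1 or transplant library 1 of day 14, and was lost without any of the others and under balanced scaling. The Sdf2l1 call was lost without sham library 1 or transplant library 1 or 3 of day 7, or without sham library 1 or 2 or transplant library 2 of day 14. Fkbp5, a glucocorticoid-induced cochaperone, had effects of 1.03 at day 7 and -1.43 at day 14, and Alas1, the first enzyme of heme synthesis, of 0.72 at day 7 and -1.56 at day 14. The 5 largest lower differences were in Inmt, Ugt1a2, Cyp2d12, Ugt3a1 and Fam151a. Inmt had effects of -3.18, -6.32 and -2.85 at day 1, day 7 and day 14, so its lowest effect was at day 7. Ugt1a2, a glucuronosyltransferase whose exons are in part shared with its neighbours, had effects of 1.01, 2.98 and 6.14 at the same days.

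**Figure D5:**
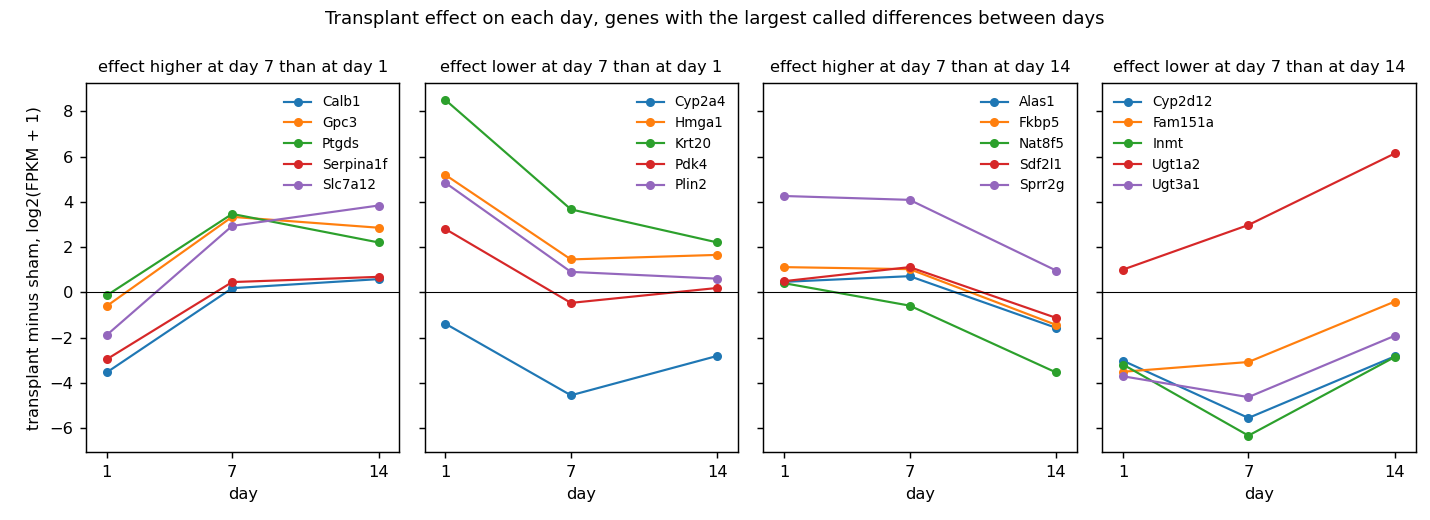
Transplant effect (transplant minus sham, log2(FPKM + 1)) at day 1, day 7 and day 14 for the genes with the largest called differences between day 7 and another day, n = 3 libraries per group and day. The Inmt effect runs through -3.18, -6.32 and -2.85, and that of Slc7a12 through -1.88, 2.94 and 3.84.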

How the data were processed

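RNA sequencing libraries of mouse renal cortex were grouped by their titles, and 6 of 18 libraries are described here. The authors deposited FPKM, a length- and depth-normalised expression value, for 54848 rows. Per the submitters' processing notes the build was mm10 and DESeq2 was among the tools, with no role given. Which aligner, quantifier and gene annotation were used is not given in the sources used here. Symbols and identifiers lacked the capital letters A and N. The identifiers were restored and 54819 matched to GENCODE M21, and 17 rows whose 7 identifiers stood on more than 1 row were left out. Depth is unknown, so no interval for counting error can be given.

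The filter kept genes with at least 1 FPKM in at least 3 of 18 libraries. limma 3.58.1 in R 4.3.3 was fitted to log2(FPKM + 1) with 6 group means and moderation that was robust and followed the trend with level. P-values were adjusted by Benjamini-Hochberg over all tested genes, with a threshold of 0.05, and differences between days were tested as contrasts of the transplant effects. The fit was tested on simulated data, with 50 genes changed by each of 4 amounts. It called 20% of genes at a log2 change of 0.5, 44% at 1, 92% at 2 and 100% at 4. In addition it called 11 unchanged genes. The simulated data held far fewer changed genes than were called at day 7, and no shift shared by all genes. These shares can therefore differ in the real data, and the 11 calls do not cover calls that depend on the scaling. A gene that was not called is not shown to be unchanged. Tables and figures used Python 3.11.15, pandas 2.3.3 and matplotlib 3.10.9. Named genes are the 12 largest rises and falls, up to 4 called genes per list with the lowest adjusted p, a panel, and the 5 largest differences between days in each direction. Some genes that this rule names are not reported here. Other genes were named after their values were seen, such as the exceptions within a list. The genes and lists were chosen with earlier results of these data known. Promoter letters are RefSeq sequences of GRCm38.p6. Alternatives changed the pseudocount, filter, scaling, moderation, libraries, threshold and replicate block.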

Additional observations from a re-analysis of the deposited data

Results flagged for a closer look

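Results are given here where the transplant effect of day 7 differed from that of day 1 or day 14 by the test of the difference itself (limma, adjusted over all tested genes). Against day 1, 467 genes had a higher effect at day 7 and 200 a lower effect. Against day 14, 40 had a higher and 54 a lower effect. Differences below are log2 effects of day 7 minus the other day.

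Against day 1 the difference was 4.82 for the amino acid transporter subunit Slc7a12, 3.94 for the proteoglycan Gpc3 and 3.73 for the calcium buffer Calb1. It was 3.60 for the prostaglandin D synthase Ptgds and 3.40 for the serpin Serpina1f. On the lower side it was -4.83 for the keratin Krt20, -3.93 for the lipid droplet gene Plin2 and -3.73 for the chromatin gene Hmga1. It was -3.26 for the pyruvate dehydrogenase kinase Pdk4 and -3.17 for the cytochrome P450 Cyp2a4.

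Against day 14 the difference was 3.12 for Sprr2g, 2.95 for the acetyltransferase-like gene Nat8f5 and 2.46 for the cochaperone Fkbp5. It was 2.28 for the heme synthesis gene Alas1 and 2.24 for Sdf2l1, a gene of the endoplasmic reticulum. On the lower side it was -3.48 for the methyltransferase Inmt, -3.17 for Ugt1a2 and -2.72 for Cyp2d12. It was -2.71 for Ugt3a1 and -2.67 for Fam151a.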

How the results depend on the processing

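The number of genes called higher at day 7, 5418, was 3589 among genes with a mean of at least 5 FPKM, 1779 under median-of-ratios scaling, 1887 under quantile normalization and 1934 with an absolute log2 fold change of at least 1. The number called lower, 918, was 1951, 1730 and 458 under the last 3 of these. The 467 genes with a higher effect at day 7 than at day 1 became 307 under median-of-ratios scaling and 300 with no filter. The 40 with a higher effect than at day 14 became 74 at a mean of at least 5 FPKM, 20 under median-of-ratios scaling and 8 with no filter, and the 54 with a lower effect became 19 with no filter.

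Leaving out each of the 18 libraries in turn gave 4240 to 5603 genes higher and 754 to 963 lower at day 7, 315 to 582 and 143 to 291 against day 1, and 11 to 66 and 25 to 69 against day 14. The higher count against day 14 moved by over 1.5 times without any library of day 7, without sham library 1 or 2 or any transplant library of day 14, or without transplant library 3 of day 1. The lower count did so without any sham library or transplant library 1 or 3 of day 7, or without sham library 2 or transplant library 2 of day 14.

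Of 160 calls on named genes, 14 were lost under median-of-ratios scaling with their direction kept, that of Ctsl was lost as its fold change turned to -0.15, and 149 held in all fits that left out 1 library. The called fold change of Gpx3 turned to 0.35 under quantile normalization. The remaining sign changes were in genes not called. Under median-of-ratios scaling the log2 fold change became -0.29 for Calb1, -0.13 for Ddx3y, -0.32 for Gapdh, -0.04 for Hmox1, -0.35 for Ldha, -0.33 for Nphs1, -0.08 for Pecam1, -0.12 for Ppargc1a, -0.02 for Serpina1f and -0.36 for Slc12a1. Under quantile normalization it became -0.02 for Cd3g, -0.04 for Ddx3y, -0.43 for Nphs1, -0.04 for Pecam1, -0.05 for Ppargc1a and 0.22 for Umod. Without mitochondrial genes in the total it became 0.00 for Ccl5, 0.02 for Cxcl9 and 0.04 for Gpx4. It became 0.14 for Cxcl9 with a pseudocount of 0.1 and 0.00 for Ccl5 and 0.01 for Il1b with a pseudocount of 5. When 1 library was left out, the sign turned in some fits, with values between -0.25 and 0.29 for Ccl5, -0.27 and 0.19 for Cxcl9, -0.08 and 0.05 for Gpx4, -0.26 and 0.35 for Il1b and between -0.02 and 0.26 for Slc12a1.

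The cause of these changes was not tested. Same-numbered transplant and sham libraries of day 7 had deviations that correlated at 0.0473, 0.0189 and 0.0722, so the numbers were not taken to pair samples, although each transplant library correlated best with its own number. With the replicate block the counts were 5324 and 907 at day 7, 435 and 193 against day 1 and 28 and 45 against day 14. Depth is unknown, and 3 libraries per group limit the precision of every value.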
